A study of Mus musculus with 7 samples.

Results

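The 5 genes Chic2, Gsx2, Pdgfra, Kit and Kdr stand next to each other, in this order, on mouse chromosome 5 and were chosen by name, as 5 of 21130 protein-coding genes that could be placed relative to the lamin-associated domains (LADs) of a mouse embryonic fibroblast line. LADs are parts of the genome that contact the nuclear lamina, a meshwork of proteins lining the inside of the nuclear envelope. They were mapped by CUT&RUN for Lamin B1, in which an antibody bound to chromatin brings in a nuclease that releases the DNA around the target. The line is called iMEF in the labels. Wild type appears only in the name of the deposited list, strain and age are not given in the sources used here, and the design text says that lines were derived independently from 1 colony. Of 7 libraries, the list used here was read as standing for the 2 Lamin B1 libraries, which no source besides its name states. Each of these was made from 500000 whole cells with the antibody at 1 to 100. The deposited list, called merged, holds 1437 domains without values per library, so no value below has a replicate error, no test between samples was possible, and the depth behind a domain is unknown. The IgG, H3K9me2 and H3K14ac libraries were not analysed here. No expression values were used, so neither the cell type nor the activity of a gene was checked.

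Pdgfra, Kit and Kdr encode receptor tyrosine kinases, cell-surface receptors with an extracellular part made of immunoglobulin-like domains and a split kinase domain inside the cell. Binding of a ligand pairs the receptors, which then phosphorylate each other and recruit signalling proteins. Pdgfra, the alpha receptor for platelet-derived growth factors, is a widely used marker of fibroblasts and their mesenchymal precursors. Kit, the receptor for stem cell factor, acts in blood stem cells, mast cells, melanocytes and germ cells. Kdr, a receptor for vascular endothelial growth factor, acts in endothelial cells and their precursors. Gsx2 is a homeobox factor of the embryonic forebrain and belongs to the ParaHox genes. Chic2 encodes a membrane-associated protein with a cysteine-rich hydrophobic part.

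The promoters of the 3 receptor genes are shown first, because these genes differed in their position relative to the lamina and their start sites also differed in sequence. Each run holds 250 bases before and 50 after the start site, from RefSeq (GRCm38.p6, the same build as mm10), 5′ to 3′ on the strand of the gene, and capitals mark CpG dinucleotides. The Pdgfra window is chr5:75152001-75152300 on the plus strand, the Kit window chr5:75574737-75575036 on the plus strand and the Kdr window chr5:75978406-75978705 on the minus strand.
Pdgfra: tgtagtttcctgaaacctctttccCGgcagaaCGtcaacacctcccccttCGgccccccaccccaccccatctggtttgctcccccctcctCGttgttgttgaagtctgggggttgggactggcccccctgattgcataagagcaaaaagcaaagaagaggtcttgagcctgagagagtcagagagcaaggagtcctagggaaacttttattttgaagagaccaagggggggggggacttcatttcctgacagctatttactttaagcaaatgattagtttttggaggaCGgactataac
Kit: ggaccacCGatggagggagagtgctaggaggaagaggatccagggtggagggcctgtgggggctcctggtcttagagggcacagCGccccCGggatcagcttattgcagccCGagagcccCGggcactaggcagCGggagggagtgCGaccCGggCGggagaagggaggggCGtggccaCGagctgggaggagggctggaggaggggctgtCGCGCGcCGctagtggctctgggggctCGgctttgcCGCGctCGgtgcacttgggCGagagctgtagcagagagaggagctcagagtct
Kdr: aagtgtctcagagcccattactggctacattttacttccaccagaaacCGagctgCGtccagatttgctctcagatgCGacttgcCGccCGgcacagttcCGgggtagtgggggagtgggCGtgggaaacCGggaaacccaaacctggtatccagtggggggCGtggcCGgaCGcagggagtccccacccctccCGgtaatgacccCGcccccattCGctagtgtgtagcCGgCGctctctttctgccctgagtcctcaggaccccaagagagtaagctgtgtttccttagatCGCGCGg

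Kit lay in a LAD, and its 4 neighbours did not. By gene midpoint, 1 of the 5 genes was in a LAD, and 24.6% of all protein-coding genes were. Kit (chromosome 5, 75574987 to 75656722, mm10) was inside a domain of 475 kb (75272074 to 75747072) over 100% of its length, start site included. No base of Chic2, Gsx2, Pdgfra or Kdr was in a LAD, whereas 26.0% of all protein-coding genes had at least 1 base in one. By start site the count was also 1 of 5, with 24.6% of the 16985 genes that have a promoter entry. The working description of the locus as 1 gap between LADs was therefore not met: a LAD stood between Pdgfra and Kdr, and the genes fell into 2 gaps and 1 domain.

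**Figure D1:**
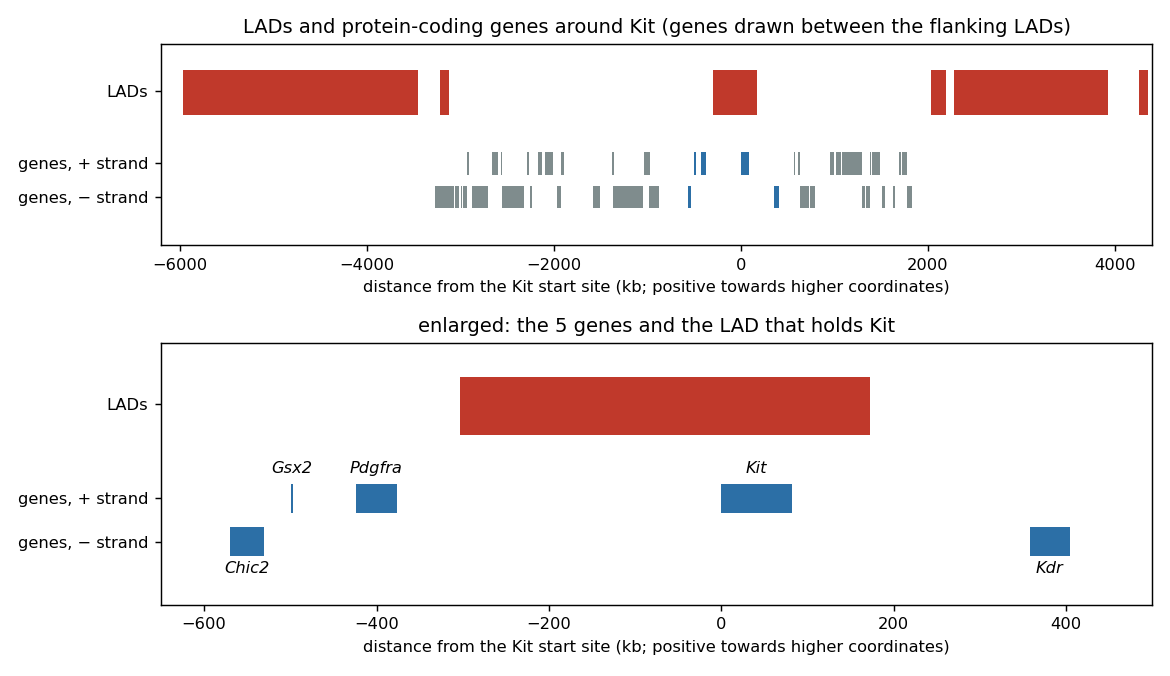
Map of LADs (red) and protein-coding genes (blue for the 5 genes, grey for others) by distance in kb from the Kit start site, with strands on separate rows (Rest and Noa1, which have no strand in the table used, are in the upper gene row). The LAD that holds Kit reaches from 303 kb before to 172 kb after the start site, with Pdgfra and Kdr outside it on either side.

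The distances to the borders ordered the genes as follows. Pdgfra (75151322 to 75198206), on the plus strand, ended 73.9 kb before the left border of the Kit domain, and its start site was 119.8 kb from it. Gsx2 (75075601 to 75077893, plus strand) had its start site 196.5 kb from the same border. For Chic2 (75005004 to 75044641, minus strand) the start site was 227.4 kb away. Kdr (75932827 to 75979072), on the minus strand, had its 3′ end 185.8 kb beyond the right border and its start site 231.4 kb beyond it. Pdgfra and Kdr were thus both transcribed toward the domain, with the 3′ end as the nearest point, and neither reached it. Borders have a step of 2.5 kb, which is far smaller than each of these distances.

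Measured from the midpoint, Pdgfra was 97.3 kb from a LAD, closer than most genes outside: 12.2% of the 15923 genes outside LADs were nearer to a border. The corresponding share was 21.2% for Gsx2 at 195.3 kb, 22.2% for Kdr at 208.9 kb and 24.8% for Chic2 at 247.3 kb. The border nearest to each of these 4 genes belonged to the Kit domain. The next LADs were much farther off. Pdgfra began 2699 kb after the LAD on the left, and Kdr ended 1633 kb before the LAD on the right. Inside its domain, the Kit midpoint was 131.2 kb from a border, and 28.9% of the 5207 genes in LADs were nearer to one.

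Kit was the single protein-coding gene of its LAD. The gene body took up 17.2% of the domain, with 302.9 kb of the domain before the start site and 90.4 kb after the 3′ end. The other annotated features there were the pseudogene Gm18345, the small nuclear RNA gene Gm24502 and the long non-coding RNA gene Gm32558. With 1 gene in 475 kb, the domain had 2.11 protein-coding genes per Mb, against 3.92 in all LADs and 12.3 between LADs. A single protein-coding gene was found in 351 of the 1437 LADs (24.4%) and in 31 of the 104 LADs of 400 to 550 kb. A gene in a LAD whose next protein-coding gene on each side was outside, as for Kit between Pdgfra and Kdr, accounted for 232 of the 5207 genes in LADs (4.46%).

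The LAD filled the intervals beside Kit unevenly. The 376.8 kb without a protein-coding gene between Pdgfra and Kit were in the LAD over 80.4% of their length, and the 276.1 kb between Kit and Kdr over 32.7%. Long intervals of this kind did not always hold a LAD. Those between Spata18 and Usp46 (319.1 kb) and between Lnx1 and Chic2 (302.0 kb), in the same gap as Pdgfra, had 0% in LADs. Of 659 intervals of 250 to 500 kb between protein-coding genes in all chromosomes, 378 (57.4%) were in LADs over at least 50% of their length and 193 (29.3%) held no LAD base.

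The Kit domain stood alone in a LAD-poor stretch. The gap on its left, with Pdgfra, Gsx2 and Chic2, measured 2820.0 kb (72452083 to 75272073), the 120th longest of 1416 gaps. The gap on its right, with Kdr, measured 1865 kb (75747073 to 77612066) and was the 193rd longest. The median gap was 240.0 kb. Of the 5.16 Mb between the LADs on the far sides of the gaps, the Kit domain took 9.21%. From 1 Mb before Chic2 to 1 Mb after Kdr, 16.0% of the sequence was in LADs, whereas chromosome 5 was covered to 45.7%. With 500 kb on each side the share was 24.1%, and with 2.5 Mb it was 21.0%, in 3 LADs.

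In length the domain was ordinary, and in isolation it was not. Its 475 kb exceeded 51.4% of all LADs, whose median was 445.0 kb. The shorter of its gaps, 1865 kb, was the 32nd largest such value among the 1395 LADs with a neighbour on each side, above 97.7% of them, and the median was 132.5 kb. Both gaps reached 1 Mb in 82 LADs (5.88%), of which 16 held a single protein-coding gene, 22 held none and 44 held several. Among those 16, the ones nearest to the Kit domain in length held Zmat4 (512.5 kb), Tmem26 (515.0 kb) and Mc4r (385 kb). These genes were chosen after their values were seen, with the length ratio as the measure of likeness over 1 merged list.

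**Figure D2:**
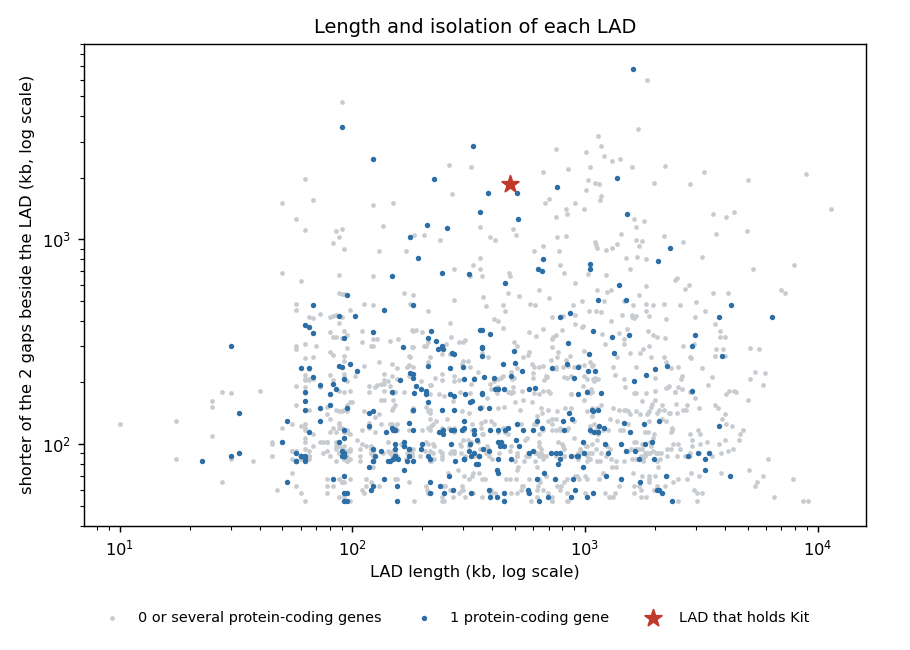
Each point is 1 of 1395 LADs, with its length in kb on the horizontal log axis and the shorter of its neighbouring gaps in kb on the vertical log axis; blue points hold 1 protein-coding gene. The Kit domain (star) lies at 475 kb and 1865 kb, near the middle of the lengths and above 97.7% of the shorter gaps.

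The genes that share the gaps with the 5 genes were of many kinds. The left gap held 24 protein-coding genes (8.51 per Mb), from Nfxl1, whose midpoint was 84.4 kb from a border, to Usp46, a ubiquitin protease, at 1239 kb. They included Fip1l1, a factor of mRNA polyadenylation, Lnx1, a ubiquitin ligase, Sgcb, a sarcoglycan of muscle, the cytoplasmic tyrosine kinases Tec and Txk, and Scfd2, Fryl, Slain2, Nipal1, Slc10a4, Ociad1, Ociad2, Cwh43, Dcun1d4, Lrrc66, Spata18 and Rasl11b. Cnga1, a channel of rod photoreceptors, and Zar1, an oocyte factor, were also in this gap, both outside LADs. The right gap held 21 (11.3 per Mb), of which Kdr was the nearest to a border and the centriole gene Cep135 the farthest, at 870.5 kb. Among them were Clock, a circadian transcription factor, Rest, a repressor of neuronal genes, Hopx, a homeodomain protein, Paics and Ppat, enzymes of purine synthesis, Polr2b, a subunit of RNA polymerase II, and Igfbp7, a secreted binding protein. The others were Srd5a3, Tmem165, Pdcl2, Nmu, Exoc1, Cracd, Aasdh, Srp72, Arl9, Thegl, Spink2 and Noa1.

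As deposited, the LADs at the far ends of the gaps were short, and larger ones followed beyond short gaps. The left one measured 90.0 kb (72362083 to 72452082) and lay inside Corin, a membrane protease that processes natriuretic peptides, covering 44.0% of that gene. The right one measured 155 kb (77612067 to 77767065) and held no protein-coding gene. On the left, beyond a gap of 237.5 kb, a LAD of 2510.0 kb held Gabrg1, Gabra2, Gabra4 and Gabrb1, subunits of the receptor for the inhibitory transmitter GABA, with Cox7b2. On the right, beyond a gap of 85.0 kb, a LAD of 1652 kb held no protein-coding gene. Joining LADs at 100 kb made the right one 1892 kb, and joining at 250 kb made the left one 4692 kb.

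The start sites differed in CpG content, with a higher value for Kit in its LAD than for Pdgfra outside. The ratio of observed to expected CpG is the number of CpG dinucleotides divided by the number that the C and G content of the window would give. Kit, in a LAD, had 20 CpG in 300 bases, a ratio of 0.62 and a GC content of 69.0%. Its ratio was above that of 85.7% of the 4181 promoters with a start site in a LAD, whose median was 0.19. Pdgfra, outside, had 5 CpG, a ratio of 0.26 and 51.0% GC. Of the 12804 promoters outside LADs, 18.5% had a lower ratio than Pdgfra, and their median was 0.69.

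Kdr had 19 CpG and a ratio of 0.69, with 50.0% of the promoters outside LADs below it. Gsx2 had 17 CpG and a ratio of 0.57. Chic2 had the most of the 5 genes, with 48 CpG and a ratio of 1.12. In the windows printed above, the capitals are spread along Kit and Kdr and are few in Pdgfra. A ratio of at least 0.6 was found in 15.4% of promoters in LADs and in 58.5% of those outside. The motif GGGCGG, searched on both strands, occurred in 46.0% of all 16985 promoters, 1 time in Kit, 2 times in Kdr and 0 times in Pdgfra. These windows describe 1 start site per gene. For Pdgfra the gene record begins 929 bases before the start site of the table, so another start exists in RefSeq. The same holds for Kdr on the minus strand, whose record begins at 75979072 and whose start site in the table is 75978455. Kit had 2 promoter entries, and the last gave a ratio of 0.65.

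**Figure D3:**
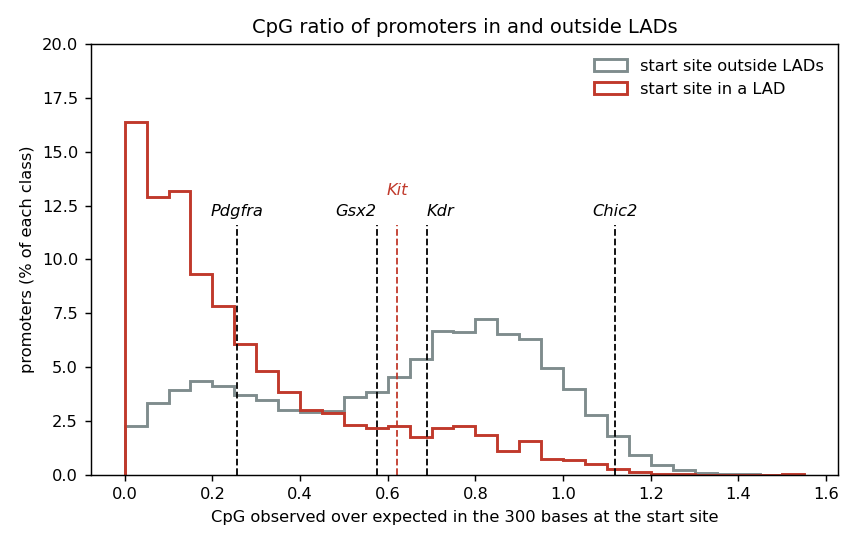
Distribution of the observed over expected CpG ratio in the 300 bases at the start site (horizontal axis), as a percentage of promoters of each class (vertical axis), with dashed lines for the 5 genes. Kit (red) at 0.62 lies to the right of the median of 0.19 of promoters in LADs, and Pdgfra at 0.26 to the left of the median of 0.69 of those outside.

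The related receptors were set beside the locus. Pdgfra, Pdgfrb, Kit, Csf1r and Flt3 form class III of the receptor tyrosine kinases, and Flt1, Kdr and Flt4, the receptors for vascular endothelial growth factors, class V. Of these 8 genes, 2 (25.0%) were in a LAD by midpoint, Kit and Flt1, which is near the 24.6% of all genes. The count was 1 of 8 for whole genes or for LADs of at least 100 kb, 1 of 6 by start site and 0 with LADs of at least 500 kb. The positions of those genes differed. Flt1 (chromosome 5, 147561604 to 147726438) contained a LAD of 67.5 kb (147619345 to 147686844) within its body, 41.0% of the gene was covered and its start site was outside. The other 6 had 0% of their length in LADs. Flt4 was 138.2 kb from a border, Flt3 253.7 kb, Pdgfrb 628.8 kb and Csf1r 682.0 kb, so Pdgfra was the nearest of the 6 genes outside.

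Among 48 other receptor tyrosine kinases that could be placed, 14 (29.2%) were in a LAD, near the 24.6% of all genes: Erbb4, Epha3, Epha4, Epha5, Epha6, Epha7, Ephb1, Ephb6, Tek, Ror1, Ntrk2, Ntrk3, Ros1 and Alk. These include 7 receptors for ephrins, the membrane-bound guidance cues, and the neurotrophin receptors Ntrk2 and Ntrk3. The LADs of all 16 receptor kinases measured from 67.5 to 4007 kb, with a median of 976.2 kb, and 7 of the 16 were the single protein-coding gene of their LAD, as were 351 of all 5207 genes in LADs; this difference was not tested. Gaps of at least 1 Mb on both sides of the LAD were found for 1 of the 16, Kit. Of all LADs with a neighbour on each side, 82 of 1395 (5.88%) had such gaps. That share counts LADs, among them empty ones and ones with several genes, so it is no base for a count of genes. The share of all genes in such LADs was not counted. Ror1 had a LAD of similar length, 450.0 kb, but its shorter gap was 57.5 kb.

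Of 12 ligands of these receptors, 1 (8.33%) was in a LAD by midpoint, Kitl, the stem cell factor that binds Kit. Kitl (chromosome 10, 100015615 to 100100416) straddled a border: 58.6% of the gene was in a LAD of 7852 kb, its midpoint was 7.25 kb from the border and its start site was outside. The count of ligands was 0 for whole genes or by start site and 2 with LADs joined at 100 or 250 kb. The genes of the platelet-derived growth factors, of which all but Pdgfd encode ligands of Pdgfra, lay outside, with Pdgfd at 285.2 kb, Pdgfc at 349.4 kb, Pdgfa at 564.0 kb and Pdgfb at 6551 kb from a border. So did the genes of the vascular endothelial growth factors, with Vegfa, the main ligand of Kdr, at 2517 kb, Vegfc at 291.5 kb and Vegfd at 41.8 kb. Pgf, Csf1, Il34 and Flt3l were outside too. Of 31 genes of signalling below the receptors, such as Pik3ca and Stat5a, 0 were in a LAD, beside 24.6% of all protein-coding genes. The same share stands beside the counts of ligands and of ParaHox genes, and none of these differences was tested. Of the ParaHox genes and their neighbours Chic1 and Chic2, 0 of 8 were in a LAD: Gsx2 was the nearest to a border, Chic2 followed, and Cdx2, Pdx1, Gsx1, Cdx1, Chic1 and Cdx4 were from 315.3 to 1293 kb away.

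Genes of the cell types in which the 3 receptors act were counted as well. Of 15 mesenchymal genes with Pdgfra, 1 (6.67%) was in a LAD, Fap, a cell-surface protease of activated fibroblasts. Of 19 endothelial genes with Kdr, 6 (31.6%) were: Sox17, Emcn, Tek, Flt1, Ptprb and Erg. The endothelial count was 2 of 10 by start site, where 24.6% of all genes were in a LAD, and 3 of 19 with LADs of at least 500 kb, where 21.5% were, so it stood above or below the share of all genes depending on the setting. The mesenchymal count was 0 under both settings and 2 with LADs joined at 250 kb. Of 16 melanocyte and mast cell genes with Kit, 6 (37.5%) were: Tyr, Dct, Fcer1a, Cpa3, Ms4a2 and Kit. The count of this list was 6 of 12 by start site. With LADs of at least 500 kb it was 5 of 16, as Kit dropped out. Kdr was thus outside LADs as were 12 of the other endothelial genes, among them Cdh5 at 185.2 kb and Tie1 at 170.0 kb from a border. The share of all genes was 24.6%, the lists are small, and the differences between their shares were not tested.

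**Figure D4:**
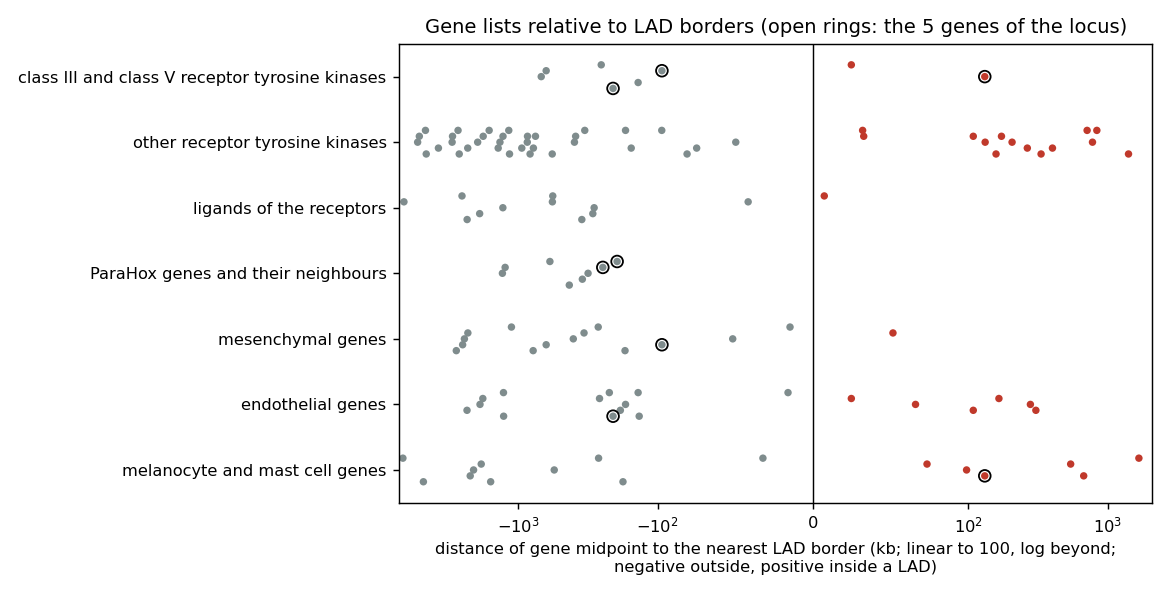
Distance in kb from the midpoint of each listed gene to the nearest LAD border (linear to 100 kb, log beyond), negative outside (grey) and positive inside a LAD (red). Each list has 1 row, except the signalling genes, which are not drawn, and vertical scatter is for visibility only. Rings mark the 5 genes, and a gene in more than 1 list is drawn and ringed in each of its rows. Kit at 131.2 kb is the ringed gene on the LAD side, and Pdgfra at 97.3 kb outside is the ringed gene nearest to a border.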

How the data were processed

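Lamin B1 CUT&RUN of mouse embryonic fibroblasts was used as 1 list of LADs. The deposited values are start and end positions in base pairs, given here counted from 1; the score that the authors deposited was 0 in all 1437 lines. Build mm10 and Bowtie2 are named in the submitters' processing notes, without a version. The domain caller, its threshold and the use of IgG or spike-in DNA are not given in the sources used here. The list is called merged, which was read as holding both Lamin B1 libraries; no other source states it. All lengths (100%) were within 125 bp of a multiple of 2.5 kb, and the smallest gap was 52499 bp, which limits the borders to steps of 2.5 kb and leaves no shorter gap visible. The depth is unknown.

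Genes came from the RefSeq table of GRCm38.p6. Of 21887 protein-coding genes, 21130 had their midpoint between the first and the last LAD of a chromosome, and 16985 of these (80.4%) had a promoter entry, of which the first was used. All 5 genes matched. A gene was in a LAD where its midpoint was. Python 3.11.15, numpy 2.4.6 and pandas 2.3.3 were used, and the placement of genes was tested on simulated positions. The named genes were the 5 genes, the protein-coding genes of the gaps and LADs around them, the related receptors, ParaHox genes and ligands, and the genes of longer lists that were in a LAD; others are named as examples chosen after their values were seen. Insr, Aatk, Vegfb and Grb2 were beyond the last or before the first LAD, and Tpsab1 is not protein-coding in the table, so they were left out of the lists. The genes and lists were chosen with earlier results of these data known. Alternatives changed the gene point, the LAD list, the joining distance and the windows.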

Additional observations from a re-analysis of the deposited data

How the results depend on the processing

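Kit was in a LAD, and Chic2, Gsx2, Pdgfra and Kdr outside, with each gene point, with LADs of at least 100 kb, joined at 100 or 250 kb, or with borders moved by 2.5 kb. Given the positions above, none of these settings could change it. Kit was covered over 100% of its length and the other genes over 0%, which fixes the outcome for each gene point. The Kit domain is longer than 100 kb, and the gaps beside it are longer than the joining distances. Moving borders shifts each distance by 2.5 kb by construction, far less than the distances found. A minimum of 500 kb, added after seeing the data, drops the domain of 475 kb by construction: 0 of the 5 genes were then in a LAD, Kit was 2236 kb outside the nearest one, and the genes shared 1 gap of 5727 kb.

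With LADs of at least 100 kb the left gap grew to 3147 kb, ending at a LAD of 2510.0 kb. Joining at 100 kb or at 250 kb made the LAD on the right 1892 kb, and joining at 250 kb made the one on the left 4692 kb. The covered share was 24.1% with 500 kb on each side. Counting all annotated genes gave 58 in the left gap and 48 in the right. Over all protein-coding genes the share in a LAD was 22.5% for whole genes, 24.6% by start site, 24.2% with LADs of at least 100 kb, 21.5% at 500 kb, and 25.4% and 28.3% with joining at 100 and 250 kb. Beside these, genes of class III and V in a LAD were 1 of 8 for whole genes, 1 of 6 by start site, 1 with LADs of at least 100 kb and 0 at 500 kb. Ligands were 0 for whole genes, 0 of 10 by start site and 2 with joining at 100 or 250 kb. Signalling genes were 1 with joining at 250 kb. Mesenchymal genes were 0 of 8 by start site, 0 at 500 kb and 2 with joining at 250 kb. Endothelial genes were 2 of 10 by start site and 3 at 500 kb. By start site fewer genes could be placed. For the other changes of these counts the cause was not tested.

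No paired analysis was possible because the list gives no values per replicate, so replicates could not be left out in turn either.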

Other observations

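Receptor kinase genes met LAD borders in several ways besides that of Kit, whose start site and whole body were inside. For Erbb4, a receptor for neuregulins, 81.3% of the body was in LADs and the start site was outside. Epha7 was covered over 70.7% and also had its start site outside. Egfr, the receptor for epidermal growth factor, showed the opposite arrangement: 3.66% of the body was in a LAD, the start site was in that part, and the midpoint was 74.9 kb outside. Alk was covered by LADs over 83.7% and had its start site inside.

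Tyr, the enzyme of melanin synthesis in the cell lineage that depends on Kit, was 1663 kb inside a LAD of 4375 kb with 38 protein-coding genes, and Dct, another enzyme of that pathway, was also in a LAD. The other melanocyte genes listed with Kit were outside, with Tyrp1 at 32.3 kb, Mitf at 177.3 kb, Pmel at 265.1 kb, Mlana at 550.5 kb and Sox10 at 6664 kb from a border.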
